A study of Mus musculus with 4 samples.

Results

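The genes described here encode the nuclear part of the mitochondrial respiratory chain: the subunits of complexes I to IV, together with factors that assemble them. Members were the genes whose symbol begins with Nduf, Uqcr, Sdh, Cox4, Cox5, Cox6, Cox7 or Cox8 and that carry the same symbol in all 3 count files. This rule gave 78 genes of the 17594 listed under a common name. Of these, 36 encode subunits of complex I, 4 of complex II, 8 of complex III and 18 of complex IV. The other 12 are 11 assembly factors of complexes I and II and Cox7a2l, a supercomplex factor. The 13 protein genes of the mitochondrial genome, whose names start with mt-, are set beside them.

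The series examined how cells of different embryonic origin in the mouse ascending aorta respond to angiotensin II (AngII), the pressor hormone of the renin system. All samples were aortas of male mice of the Mef2c-mTmG strain, which carries a fluorescent lineage reporter. Live singlets were separated by that reporter and captured in droplets with a 3′ v3 kit. The 3 libraries used were SHF (second heart field) at baseline, SHF after 3 days of AngII infusion, and CNC (an origin the labels do not spell out) after 3 days of AngII. A baseline sample of CNC is labelled but was not analysed here. The age of the mice, how many were pooled and what the baseline mice received are not given in the sources used here. Each group was 1 library, so no comparison has a replicate check, no test was made, and intervals cover counting error only.

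Complex I takes electrons from NADH and complex II from succinate. Complex III passes them to cytochrome c, and complex IV, cytochrome c oxidase, hands them to oxygen. Complexes I, III and IV combine catalytic subunits made from mitochondrial DNA with nuclear subunits that are imported from the cytosol, whereas complex II is wholly nuclear-encoded. Several complex IV subunits exist as alternative isoforms used in particular tissues or oxygen conditions. In vascular smooth muscle, oxidative phosphorylation supports contraction beside glycolysis.

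The start sites of the members were searched for the binding words of factors that are known to act on this gene class. Promoters, taken from 250 bases before to 50 bases after each start in RefSeq (GRCm38.p6), were matched for 64 of the 78 members. The palindromic word of nuclear respiratory factor 1 (the 10 capital letters in the sequences that follow) occurred in promoters of 5 members (7.81%), against 1.07% of 27025 genes. These 5 were Cox6a1, Ndufa11, Ndufaf4, Ndufaf5 and Uqcrc1. The 3 for which a window of 60 bases around the word lies wholly within the 250 bases before the start site are printed. They are given from 5′ to 3′ on the gene's strand, with the word in capitals. They were chosen by the position of the word, not by expression. Of the 5, Cox6a1 and Ndufa11 were among the members that stood higher after AngII in both smooth muscle and fibroblasts. Uqcrc1 did so in fibroblasts only, and Ndufaf4 differed little. Ndufaf5 was not among the members that stood higher or lower in either class. A link of the word to the AngII ratios was not tested.

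Cox6a1: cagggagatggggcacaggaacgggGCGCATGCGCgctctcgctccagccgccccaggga

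Ndufa11: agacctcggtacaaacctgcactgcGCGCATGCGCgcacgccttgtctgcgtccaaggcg

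Ndufaf4: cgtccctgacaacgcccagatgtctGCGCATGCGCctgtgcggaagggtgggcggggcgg

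The Cox6a1 window is chr5:115349086-115349145 on the minus strand, and its word ends 152 bases before the start site. The Ndufa11 window is chr17:56717677-56717736 on the plus strand, with the word ending 50 bases before the start. The Ndufaf4 window is chr4:24897945-24898004 on the plus strand, with the word ending 103 bases before the start. The ETS word CCGGAAG, read by the GABP factors among others, was found for 15 members (23.4%) against 9.93% of genes. The YY1 word AAGATGGCG was found for 5 members (7.81%), Ndufa9, Ndufc1, Ndufs4, Ndufs6 and Ndufs7, against 1.64%. General promoter words did not stand out in this way: GGGCGG was present for 32 of 64 members and 38.2% of genes, CCAAT for 39.1% and 41.1%, and TATAAA for 10.9% and 15.7%. The E-box CACGTG was found for 2 members, Ndufa7 and Ndufv1 (3.13% against 8.09%). All words were searched on both strands. The ETS and YY1 words can overlap, since the first ends and the second begins with the same letters, and a match is a description of letters only.

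The libraries held 92474476 UMIs (counted transcript molecules) in 9412 barcodes for SHF baseline, 147854476 in 11166 for SHF AngII and 150954701 in 11098 for CNC AngII. Between 29 and 34 barcodes were shared by any pair of libraries. Smooth muscle cells (at least 5 Myh11 UMIs and no Pdgfra UMI) numbered 2259 in the baseline library, 4649 with AngII in SHF and 6385 with AngII in CNC, and sets of 3 values keep that order. Fibroblasts (at least 1 Pdgfra UMI and at most 2 of Myh11) numbered 3938, 2638 and 834. Macrophages (at least 10 UMIs of C1qa, C1qb and Lyz2 together and under 5 of Myh11) numbered 7, 11 and 1756, so only those of CNC AngII are described. The gates separated their markers: Acta2 stood at 29567 to 35630 CPM (UMIs scaled to a common total per class and library) in smooth muscle and at 584 to 2001 in fibroblasts, whereas Dcn stood at 4674 to 15523 CPM in fibroblasts and at 20.3 to 311 in smooth muscle. The 6 smooth muscle markers summed to 1447, 4373 and 4306 CPM in the fibroblast gate, and the part of this difference in the results was not tested. Tnnt2, one of the cardiomyocyte markers, was at 743, 477 and 53.3 CPM in smooth muscle. Actc1, another, was at 10.8, 4.95 and 1.55 CPM there, and Myh6 was at most 0.24.

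Nearly all members were detected in every class. At least 10 CPM was reached by 70, 70 and 69 of the 78 in smooth muscle, by 73, 72 and 72 in fibroblasts and by 69 in macrophages. The members below that level were mostly tissue isoforms of complex IV. Cox4i1, the common form of the complex IV subunit 4, was the highest member throughout. It stood at 1039, 1128 and 1089 CPM in smooth muscle, at 662, 802 and 795 in fibroblasts and at 1229 in macrophages. The median member stood at 183.5, 199.6 and 190.3 CPM in smooth muscle, at 147.4, 167.5 and 159.6 in fibroblasts and at 189.6 in macrophages. Because UMIs are counted at the 3′ end, these levels do not scale with transcript length, although genes may differ in how well they are captured.

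**Figure D1:**
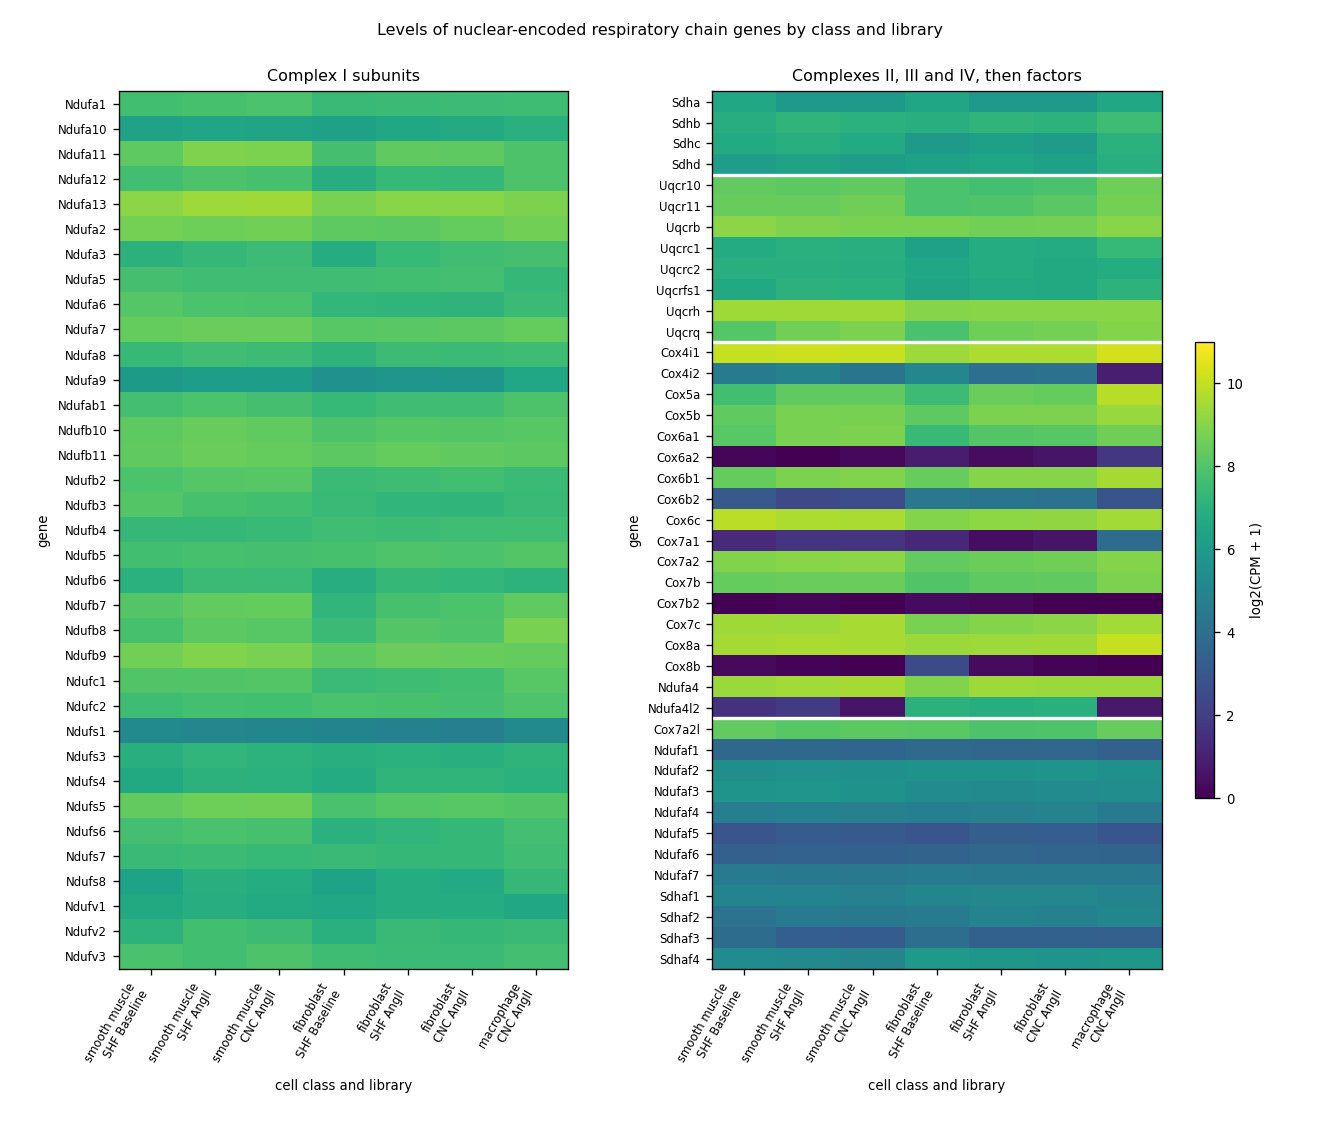
Heat map of log2(CPM + 1), with members (all but 1) as rows grouped by complex and each class and library as a column; white lines separate complexes II, III and IV and the factors. Cox4i1 is the highest member in every column, and the tissue isoforms of complex IV are the darkest rows.

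Summed over the 78 genes, members made up 17286, 18967 and 18886 CPM in smooth muscle, 13611, 15836 and 16025 in fibroblasts and 19890 in macrophages. Smooth muscle was thus above fibroblasts within each library, and both AngII libraries were above baseline in both classes. The sum of the 13 mt- genes was lower in both AngII libraries than at baseline. It was 73207, 53207 and 49614 CPM in smooth muscle, 41982, 29003 and 27841 in fibroblasts and 40536 in macrophages. For each nuclear member UMI there were 4.24, 2.81 and 2.63 mt- UMIs in smooth muscle, 3.08, 1.83 and 1.74 in fibroblasts and 2.04 in macrophages. The SHF baseline library therefore held the highest ratio in both classes, and smooth muscle exceeded fibroblasts within each library. Part of this ratio rests on which cells are kept: with at most 5% mt- UMIs per cell, only 122 of 2259 baseline smooth muscle cells remain, and the smooth muscle ratios become 2.74, 2.30 and 2.24. The fibroblast ratios, where 3090 of 3938 baseline cells remain, become 2.783, 1.776 and 1.696. Smooth muscle then no longer exceeds fibroblasts at baseline, but still does in both AngII libraries.

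**Figure D2:**
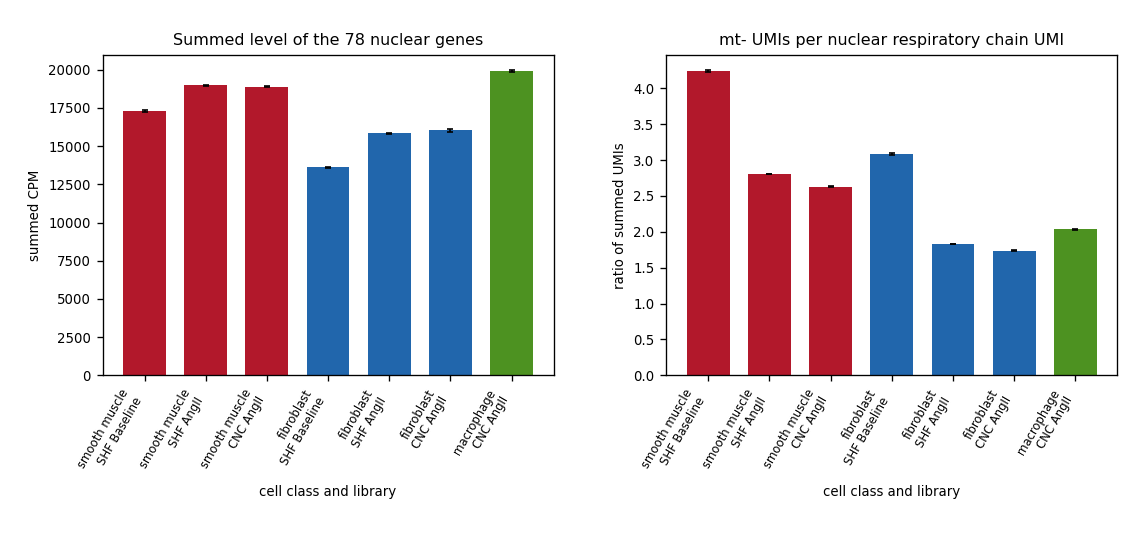
Bars give the summed CPM of the 78 nuclear members (left) and the number of mt- UMIs per nuclear member UMI (right) by class and library, with 95% counting intervals. The left bars are higher in both AngII libraries than at baseline, and the right bars fall from 4.24 at baseline to 2.81 and 2.63 in smooth muscle and from 3.08 to 1.83 and 1.74 in fibroblasts.

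Per cell, members took a median of 1.86%, 2.02% and 2.01% of the non-mitochondrial UMIs of a smooth muscle cell, 1.43%, 1.61% and 1.63% of a fibroblast's and 2.01% of a macrophage's. The share moved with depth in fibroblasts: at baseline it was 2.07% in the 717 cells under 5000 UMIs and 1.31% in the 117 cells above 20000. Median depths were 9533.5, 15484 and 12343.5 UMIs in fibroblasts and 12441, 13336 and 13450 in smooth muscle, so fibroblasts were shallowest at baseline, and the part of depth in the order of the shares was not tested.

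The first comparison set SHF AngII against SHF baseline in smooth muscle. Ratios are log2 with 1 CPM added to both sides, and a member is said to stand higher or lower where the ratio is at least 0.5 in size and the mean level at least 10 CPM. Of 70 members measured, 6 stood higher (11.2% of all genes did) and 2 lower (20.4% of all genes). The median member ratio was 0.14, against -0.10 for all genes, and 53 members were above 0. Scaling by TMM, which aligns the bulk of genes in place of the totals, adds 0.18 to each ratio in this comparison. The median member then stood at 0.32 against 0.07 for all genes, with 14 members higher (18.0% of genes) and 0 lower (11.6%). With at most 5% mt- UMIs per cell, which leaves 122 baseline cells, 16 members were higher and 0 lower, against 14.995% and 30.2% of genes.

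Of the 6 higher members, 2 encode catalytic core subunits of complex I. Ndufs8, which binds iron-sulfur clusters, went from 83.0 CPM at baseline to 122 with AngII (log2 ratio 0.55, interval 0.49 to 0.62), and Ndufv2, of the NADH-oxidising module, from 139 to 201 (0.53). Ndufa11, an accessory membrane-arm subunit, went from 308 to 472 CPM (0.62, interval 0.58 to 0.65). Each of these was also high in the CNC AngII library, at 112, 186 and 448 CPM. In complex III, Uqcrq, a small membrane subunit, stood at 271, 408 and 451 CPM (0.59 for SHF). In complex IV, Cox5a, a nuclear subunit on the matrix side, stood at 202, 321 and 315 CPM, the largest of the member ratios (0.66, interval 0.63 to 0.71). Cox6a1, the broadly expressed form of subunit 6A, stood at 292, 435 and 457 CPM (0.58). Cox5a lies at chr9:57521274-57532426, plus strand (GRCm38, GENCODE M21), and Cox6a1 at chr5:115345642-115348981, minus strand. The annotation holds a near-identical copy of the Cox6a1 3′ end, AC148174.2, and an opposite-strand transcript over Cox5a, so how reads were assigned could affect both.

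Members that encode complex II did not move together. Sdha, the flavoprotein that oxidises succinate, stood at 95.1 CPM at baseline and at 61.7 and 60.7 in the AngII libraries (log2 ratio -0.62, interval -0.69 to -0.55). The other 3 subunits were slightly above 0: Sdhb, the iron-sulfur subunit, at 0.32, and the membrane anchors Sdhc and Sdhd at 0.18 and 0.16. Sdhaf3, an assembly factor of complex II, went from 13.9 to 8.88 CPM (-0.60). With TMM scaling Sdha was at -0.44 and Sdhaf3 at -0.44, both short of 0.5. With at most 5% mt- UMIs they were at -0.45 and -0.22. The members next lowest were Ndufb3 (-0.27), Uqcrb (-0.24) and Ndufa6 (-0.23), a set of accessory or small subunits.

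By complex, the median smooth muscle ratio was 0.16 for complex I, 0.17 for complex II, 0.02 for complex III, 0.13 for complex IV and 0.02 for the assembly factors. The 7 core subunits of complex I had a median of 0.24 and the 29 accessory subunits 0.15. In the mt- genes the median was -0.53, and 7 of 13 stood lower: mt-Nd3 (-0.83), mt-Nd6 (-0.64), mt-Co3 (-0.61), mt-Nd1 (-0.61), mt-Nd2 (-0.56), mt-Atp6 (-0.54) and mt-Nd4 (-0.53). Under TMM scaling the median was -0.35, and only mt-Nd3 (-0.65) was past the limit. The mt- genes were uneven among themselves. mt-Co1, the catalytic subunit of complex IV, was at 6315, 5884 and 5968 CPM (-0.10), whereas mt-Co3 of the same complex was at 14090, 9212 and 8458. mt-Atp8 and mt-Nd4l were above 0, at 0.17 and 0.16. Median mt- percentages per smooth muscle cell were 7.36, 5.43 and 5.16, and more than 10% mt- UMIs had removed 7.34%, 14.5% and 5.30% of the barcodes. Their part in these ratios was not tested.

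The same libraries were then compared in fibroblasts. Of 73 members measured, 12 stood higher (13.5% of all genes) and 3 lower (32.3%), with a median of 0.16 against -0.21 for all genes and 53 members above 0. TMM scaling adds 0.28 here and gave a median of 0.44 against 0.06, with 30 members higher (25.2% of genes) and 1 lower (18.7%). The smooth muscle and fibroblast comparisons use the same pair of libraries, so whatever set those libraries apart enters both. No test of the classes against each other was made.

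Complex IV supplied 5 of the 12 higher members in fibroblasts. Cox5a went from 184 to 352 CPM (log2 ratio 0.93, interval 0.90 to 0.98) and stood at 341 in CNC AngII. Cox6a1 stood at 168, 267 and 285 CPM (0.66). The rest were Cox5b (0.56), Cox6b1 (0.56) and Ndufa4 (0.51), a subunit first assigned to complex I and now placed in complex IV. All 11 complex IV genes other than the tissue isoforms were above 0, with a median of 0.28. Complex III gave Uqcrq, at 232, 385 and 418 CPM (0.73), and Uqcrc1, a core protein, at 76.7, 111 and 108 (0.52). Complex I gave Ndufa3 (0.65), Ndufa11 (0.58), Ndufb8 (0.57), Ndufb7 (0.54) and Ndufa12 (0.51), all accessory subunits. Its 7 core subunits stayed below 0.5, with a median of 0.21. This split was not kept under TMM scaling: 3 of 7 core and 14 of 29 accessory subunits then stood higher (25.2% of genes), with medians of 0.49 and 0.48.

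The lower members in fibroblasts were Cox4i2, Sdhaf3 and Sdha. Sdha stood at 86.9, 61.2 and 60.7 CPM (-0.50, interval -0.58 to -0.43), so the CNC AngII level was 60.7 CPM in fibroblasts and smooth muscle alike. Sdhb, Sdhc and Sdhd were at 0.28, 0.30 and 0.15. Sdhaf3 stood at 14.8, 9.57 and 9.73 CPM (-0.58). Under TMM scaling Sdha was at -0.22 and Sdhaf3 at -0.32. Sdha sat at the edge of the 0.5 limit under most other settings as well, such as -0.47 with per-cell means. It lies at chr13:74322254-74350280 on the minus strand. In the mt- genes the median was -0.65, and 9 of 13 stood lower, led by mt-Nd2 (-1.03) and mt-Nd3 (-0.92), whereas mt-Co1 was at 0.01. Under TMM scaling the median was -0.37, mt-Nd2 (-0.75) and mt-Nd3 (-0.63) were past the limit, and mt-Co2 went from -0.27 to 0.0088. The smooth muscle ratio of mt-Co1 also changes sign under that scaling.

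**Figure D3:**
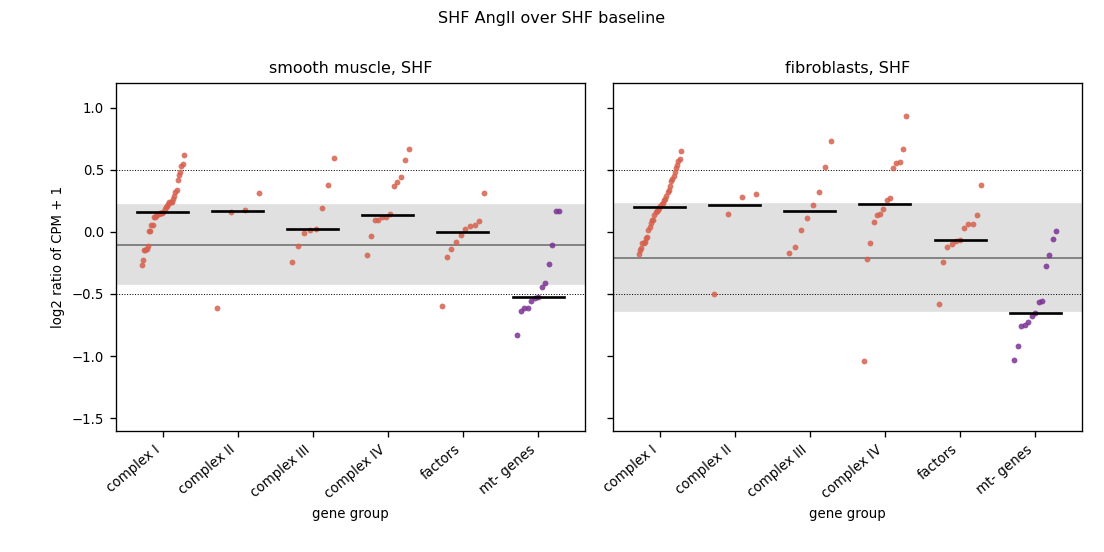
Log2 ratio of SHF AngII over SHF baseline in smooth muscle and in fibroblasts, with 1 point per gene of at least 10 CPM, short bars at group medians (factors include Cox7a2l), dotted lines at 0.5 and -0.5, and the median and middle quartiles of all genes in grey. Cox5a is the highest member in both classes, and Sdha and Sdhaf3 lie below -0.5 or at that limit in both.

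Other mitochondrial and energy genes, from lists chosen for their function, gave a mixed picture in the same comparison. Their counts stand against 11.2% of all genes higher and 20.4% lower in smooth muscle, and 13.5% and 32.3% in fibroblasts. ATP synthase, which uses the proton gradient the chain builds, had 3 of 16 genes higher and 0 lower in smooth muscle (median 0.15), and 6 of 16 higher and 0 lower in fibroblasts (median 0.31). Its higher genes in both classes included Atp5g1, a subunit of the rotor ring (0.63 and 0.95). Of the tricarboxylic acid cycle, 2 of 14 genes were higher and 0 lower in each class. Mdh2, the mitochondrial malate dehydrogenase, was at 0.58 and 0.90. Among 8 electron carriers and their partners 1 was higher and 1 lower in each class. Etfa, a subunit of the electron transfer flavoprotein, was the lower gene (-0.53 and -0.58), and under TMM scaling it was at -0.36 and -0.30. With that scaling ATP synthase, the tricarboxylic acid cycle and the carriers had 4, 2 and 3 genes higher in smooth muscle (18.0% of genes). In fibroblasts they had 10, 6 and 3 higher (25.2%). Lower genes were then 0 for each list in both classes (11.6% and 18.7%).

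Glycolytic genes had larger ratios than the members. In smooth muscle 8 of 15 were higher and 2 lower (median 0.54), and in fibroblasts 9 of 14 were higher and 1 lower (median 0.64). With TMM scaling 9 of 15 and 12 of 14 were higher, and 1 and 0 lower. Ldha, which makes lactate, was at 1.17 and 1.35, and Gapdh at 0.86 and 1.15. Hk2, a hexokinase, was at -0.79 in smooth muscle and 0.61 in fibroblasts. Pgk1 stood at 4.27 and 4.26, Timm23, an import gene, at 4.26 and 4.80, and Cox16, an assembly gene outside the rule, at 3.05 and 2.93. The baseline file lists other genes than the AngII files do, so for such large ratios in both classes treatment, library and annotation cannot be told apart. Regulators of mitochondrial biogenesis had no higher gene: 0 of 7 higher and 2 lower in smooth muscle (median -0.24), and 0 of 8 higher and 3 lower in fibroblasts (median -0.41). With TMM scaling 1 was lower in each class, with medians of -0.08 and -0.14. Gabpa, whose product reads the ETS word, was at -0.74 and -1.06, and Nrf1 at -0.54 and -0.45 (-0.38 and -0.18 under TMM scaling). Assembly factors outside the rule had 3 of 18 higher and 0 lower in smooth muscle (median 0.27) and 2 of 19 higher and 0 lower in fibroblasts (0.12). With TMM scaling 7 of 18 and 9 of 21 were higher, and 0 lower in either class. Import and protease genes had 2 of 6 higher in each class, with 0 and 1 lower. Genes of the outer membrane and of mitochondrial dynamics had 0 higher in either class, with 0 of 6 and 3 of 7 lower. Those lower in fibroblasts were Opa1, Mfn1 and Mfn2, whereas Vdac1, Vdac2 and Vdac3 were above their baseline levels. With TMM scaling 2 of 7 were higher and 0 lower in fibroblasts, against 25.2% and 18.7% of genes, and 0 of 6 were past the limit in smooth muscle.

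The second comparison set CNC AngII against SHF AngII, which share treatment and gene list. The 8 macrophage markers summed to 1.44 CPM in SHF and 356 in CNC smooth muscle, and to 16.1 and 72.1 in fibroblasts. Their part in the ratios was not tested. In smooth muscle 0 of 69 stood higher (1.37% of all genes) and 1 lower (1.41%), and the median was -0.05 against 0.01 for all genes. In fibroblasts 0 of 72 stood higher (1.49%) and 0 lower (1.66%), and the median was 0.00 against 0.01. TMM scaling left these counts as they were, against 1.35% and 1.43% of genes in smooth muscle and 1.46% and 1.76% in fibroblasts. The lower member was Cox4i2 in smooth muscle, at 27.9 CPM in SHF and 18.3 in CNC (-0.59, interval -0.71 to -0.52). At the other end were Ndufv3, a complex I accessory subunit, at 204 and 241 CPM (0.24), Ndufa3 (0.20) and Cox7c (0.17).

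Between origins 48 of 69 members were below 0 in smooth muscle and 36 of 72 in fibroblasts. All 4 complex II subunits were below 0 in smooth muscle (median -0.16) and in fibroblasts (median -0.11), and all 7 complex I core subunits were below 0 in smooth muscle (median -0.11). All 8 assembly factors measured and all 8 electron carriers were below 0 there too, so this was not particular to those complexes. In CPM, Sdhd was at 80.1 in SHF and 69.2 in CNC smooth muscle, and at 86.3 and 77.7 in fibroblasts. Sdhb was at 144 and 130 in smooth muscle and at 148 and 138 in fibroblasts. In fibroblasts the ratios of all members ran from -0.17 (Cox6b2) to 0.21 (Uqcr11, a small complex III subunit). With 1 library per origin there is no estimate of how far preparations of the same origin would differ.

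The third comparison set smooth muscle against fibroblasts within a library, so that preparation and gene list are shared. At SHF baseline 16 of 72 members stood higher in smooth muscle (13.7% of all genes) and 4 lower (28.2%), with a median of 0.25 against -0.19 for all genes. In SHF AngII 13 of 72 were higher (17.7%) and 3 lower (26.2%), with medians of 0.20 and -0.11. In CNC AngII 7 of 72 were higher (17.4%) and 3 lower (25.4%), with medians of 0.16 and -0.10. Under TMM scaling, which adds 0.25, 0.20 and 0.23, the member medians were 0.50, 0.40 and 0.38. The members higher and lower were then 37 and 2, 26 and 2, and 23 and 2, against 20.8% and 19.6%, 24.8% and 19.0%, and 25.7% and 17.4% of genes.

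All 8 complex III members were above 0 in each library, with medians of 0.36, 0.27 and 0.21. This was not particular to complex III. Under TMM scaling the 7 complex I core subunits and the 11 complex IV genes other than tissue isoforms were also all above 0 in each library. Uqcrh, the hinge protein, stood at 684, 679 and 692 CPM in smooth muscle and at 514, 520 and 521 in fibroblasts, levels that barely moved with treatment or origin. Complex I had medians of 0.28, 0.23 and 0.25, with 8, 7 and 4 of 36 higher and 0 lower. Ndufa6, an accessory subunit, was among the highest each time, at 276, 235 and 229 CPM in smooth muscle and 155, 146 and 141 in fibroblasts (0.83, 0.69 and 0.69). Cox6a1, of complex IV, was at 0.79, 0.70 and 0.68, and Cox6c at 0.88, 0.54 and 0.42.

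Complex II differed by subunit between the classes. Sdhc, a membrane anchor, stood at 105, 119 and 106 CPM in smooth muscle and at 58.5, 72.5 and 66.6 in fibroblasts (0.83, 0.70 and 0.67). Its partners were near level: Sdha at 0.13, 0.01 and 0.00, Sdhb at -0.06, -0.03 and -0.08, and Sdhd at -0.12, -0.11 and -0.17. Of its assembly factors, Sdhaf4 and Sdhaf2 were below 0 in every library, also under TMM scaling. Sdhaf4 stood at 38.6, 36.6 and 31.6 CPM in smooth muscle and at 59.4, 55.4 and 50.8 in fibroblasts (-0.61, -0.59 and -0.67). Sdhaf2 was at -0.39, -0.45 and -0.39. With TMM scaling Sdhaf4 was at -0.36, -0.39 and -0.45, short of the limit. The mt- genes had a wider gap than the members, with medians of 0.83, 1.03 and 0.93 and 12 of 13 higher in smooth muscle in each library. Filtering to at most 5% mt- UMIs changed the baseline count of members to 9 higher and 6 lower, from 122 smooth muscle cells, against 14.6% and 26.2% of genes.

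**Figure D4:**
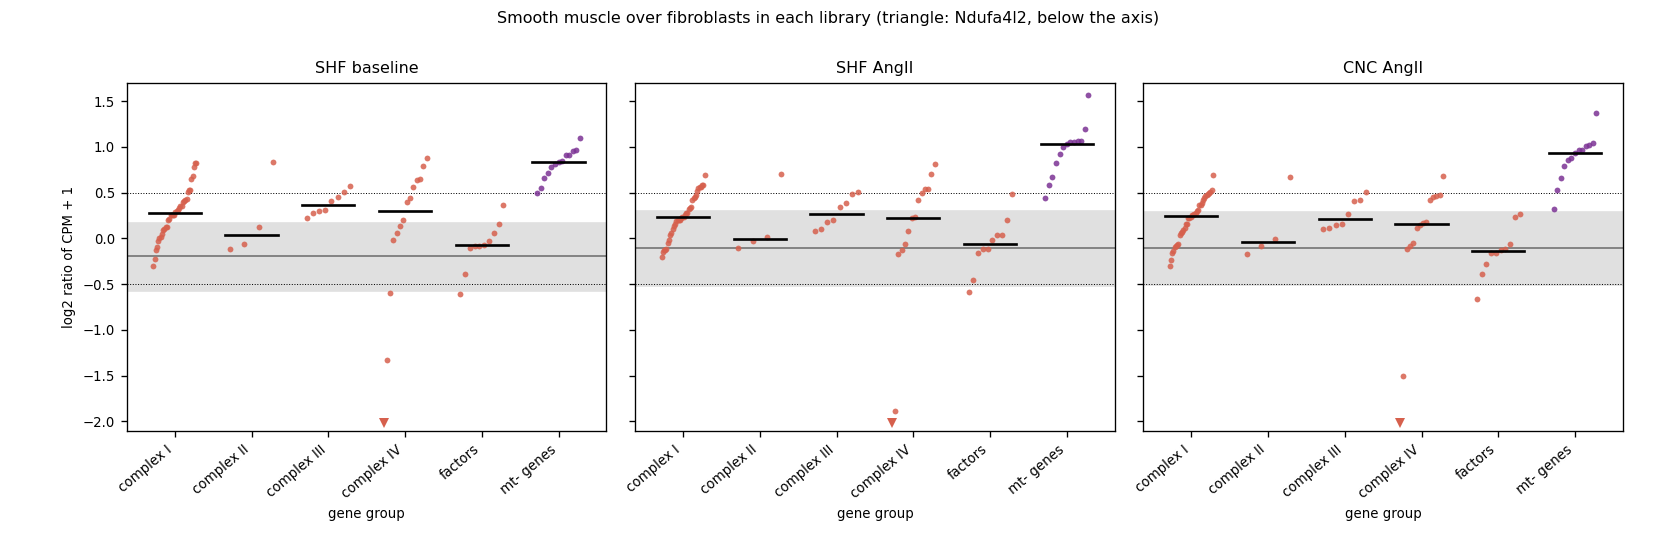
Log2 ratio of smooth muscle over fibroblasts in the 3 libraries, with points, short bars, dotted lines and grey band as in the plot of AngII ratios. Most complex I, III and IV members lie above 0, and Ndufa4l2, drawn as a triangle, lies beyond the axis at -5.01 to -6.39.

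Macrophages of CNC AngII had a member sum close to that of smooth muscle (19890 and 18886 CPM) with another balance of subunits. Of 69 members, 12 stood higher than in smooth muscle (38.0% of all genes) and 4 lower (26.3%), with a median of 0.06 against 0.20 for all genes. TMM scaling changes each ratio by -0.23 here and gave 3 higher (29.9%) and 9 lower (32.6%), with a median of -0.16 against -0.03. The sign of the median member thus depends on the scaling. Cox5a was the highest, at 906 CPM in macrophages and 315 in smooth muscle (1.52, interval 1.50 to 1.55). The next highest Cox5a level among the classes described was 352 CPM, in SHF AngII fibroblasts.

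Complex II was also high in macrophages, with 3 of 4 subunits higher and a median of 0.59. Sdhd stood at 120 CPM against 69.2 (0.79), Sdha at 94.7 against 60.7 (0.63), Sdhb at 189 against 130 (0.54) and Sdhc at 130 against 106 (0.29). The factors Sdhaf4 (55.9 and 31.6 CPM, 0.80) and Sdhaf2 (0.59) were higher too. All of these kept a positive ratio under TMM scaling, but only Sdhd and Sdhaf4 among them were then past the limit. The 4 lower members were all complex I accessory subunits: Ndufa11 (242 against 448 CPM, -0.88), Ndufb2 (-0.63), Ndufa13 (-0.60) and Ndufs5 (-0.60). Within the macrophages, the 1344 cells with a Lyve1 UMI had a member sum of 20542 CPM and the 412 without one 17090. Cells with a Ccr2 UMI had 18111 CPM and those without one 20451. Their median depths were 11725.5 and 9245.5 UMIs for the Lyve1 split and 10387 and 11442 for the Ccr2 split.

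The isoforms of complex IV were the most class-restricted members. Ndufa4l2, an alternative form of Ndufa4 that is known to be induced by low oxygen, stood at 135, 116 and 127 CPM in fibroblasts, at 2.03, 2.65 and 0.521 in smooth muscle and at 0.679 in macrophages. Of the UMIs of Ndufa4l2 and Ndufa4 together, it held 22.1% (21.6% to 22.6%, exact binomial interval), 14.6% (14.25% to 14.98%) and 16.3% (15.6% to 17.1%) in fibroblasts. In smooth muscle the share was 0.312%, 0.368% and 0.0713%, and in macrophages 0.103%. The fibroblast shares moved with depth: in cells of 5000 to 20000 UMIs they were 22.4%, 18.2% and 17.2%. A UMI was found in 46.2%, 52.1% and 46.4% of fibroblasts and in 1.33%, 1.66% and 0.376% of smooth muscle cells. Per 100 UMIs of Dcn, a fibroblast gene, Ndufa4l2 had 0.870, 2.02 and 2.71 UMIs in fibroblasts and 0.653, 1.53 and 2.57 in smooth muscle. In macrophages of CNC AngII it had 4.86 (2.62 to 8.29), from 14 UMIs. Whether its UMIs in smooth muscle and macrophages came from those cells themselves was not tested. The lower share with AngII went with a higher partner: Ndufa4 stood at 477, 679 and 649 CPM in fibroblasts, while Ndufa4l2 itself was at -0.22 for AngII over baseline and at 0.07 under TMM scaling. Ndufa4l2 lies at chr10:127514967-127517154 on the plus strand, with Shmt2 on the opposite strand.

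Among fibroblasts, Ndufa4l2 was lower in the cells without a UMI of Pi16, a marker of adventitial fibroblasts. These had 107, 86.8 and 60.8 CPM, and the cells with one 139, 119 and 136. In SHF AngII it was also lower in cells with a UMI of Cthrc1, a matrix-remodelling gene, at 99.9 CPM against 164 without one. At baseline the same split gave 85.01 and 144 CPM, and in CNC AngII 119.8 and 141.

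Cox4i2, the alternative form of Cox4i1 and likewise linked to low oxygen, was the member with the largest AngII ratios of opposite sign in the 2 classes. It stood at 21.4, 27.9 and 18.3 CPM in smooth muscle and at 32.9, 15.4 and 16.9 in fibroblasts. AngII over baseline was 0.37 in smooth muscle and -1.04 in fibroblasts (interval -1.23 to -0.96). Hence smooth muscle was below fibroblasts at baseline (-0.60) and above them in SHF AngII (0.82). Macrophages had 19 UMIs, or 0.921 CPM. As a share of both forms Cox4i2 was 2.02%, 2.42% and 1.65% in smooth muscle and 4.73%, 1.89% and 2.08% in fibroblasts. In fibroblasts of 5000 to 20000 UMIs the shares were 4.70%, 2.49% and 2.40%. Cox4i2 lies at chr2:152754173-152765037 on the plus strand.

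At baseline the fibroblast level of Cox4i2 was uneven between cells. The 549 cells without a Pi16 UMI held 556 of its UMIs, or 110 CPM (101 to 119.5), and 30.6% of them had a UMI, whereas the 3389 cells with Pi16 held 689, or 20.98 CPM. In SHF AngII the same split gave 28.8 and 14.3 CPM, and in CNC AngII 16.1 and 16.997. Genes of pericytes and other mural cells, chosen after these values were seen, were partly raised in the same cells: Rgs5 was at 90.2 CPM without and 26.8 with Pi16, Notch3 at 24.1 and 4.20, and Acta2 at 962 and 526, whereas Kcnj8 was at 86.5 and 76.3 and Abcc9 at 145 and 160.3. Their part in the Cox4i2 ratio was not tested. Averaging over cells gave -0.59 in place of -1.04, and keeping cells of 5000 to 20000 UMIs gave -0.60.

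Cox7a1, the muscle form of subunit 7A, was highest in macrophages. It stood at 14.0 CPM there (12.4 to 15.7, from 288 UMIs, with a UMI in 14.3% of cells), at 1.46, 2.22 and 2.20 in smooth muscle and at 1.37, 0.334 and 0.531 in fibroblasts. Of the cardiomyocyte markers, the macrophage gate held Myh6 at 0, Actc1 at 0.0485 and Tnnt2 at 0.776 CPM. The source of the Cox7a1 UMIs in that gate was not tested. Cox7a1 made up only 2.74% of the UMIs of Cox7a1 and Cox7a2 in macrophages. Cox6a2, the muscle form of subunit 6A, had 51 UMIs in macrophages (2.47 CPM), against 0.188 CPM in smooth muscle of the same library. The annotation holds Itgad on the opposite strand over Cox6a2, so how reads were assigned could affect these levels.

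Cox6b2, known as the testis form of subunit 6B, leaned toward fibroblasts at 19.9, 18.6 and 16.4 CPM, against 7.31, 4.32 and 5.15 in smooth muscle and 6.30 in macrophages. Its share of Cox6b1 and Cox6b2 together was 5.46%, 3.55% and 3.13% in fibroblasts and 2.10%, 0.953% and 1.06% in smooth muscle. In fibroblasts of 5000 to 20000 UMIs it was 5.41%, 4.66% and 3.74%. Cox8b, the muscle and brown fat form of subunit 8, was nearly limited to baseline fibroblasts, with 174 UMIs (4.59 CPM, 3.94 to 5.33) against 11 UMIs (0.245 CPM) in SHF AngII and 1 UMI (0.0884 CPM) in CNC AngII. Smooth muscle had 0.203, 0.0720 and 0 CPM. In the baseline fibroblasts Cox8b was at 10.7 CPM without and 3.65 with Pi16. Of the cardiomyocyte markers, that gate held Tnnt2 at 41.5, Actc1 at 0.185 and Myh6 at 0.0528 CPM. Of the adipocyte markers, it held Plin1 at 0.0528 and Ucp1 at 0.0264 CPM. Their part in the Cox8b level was not tested. Cox7b2, the remaining isoform, was at most 0.264 CPM in all of these classes.

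**Figure D5:**
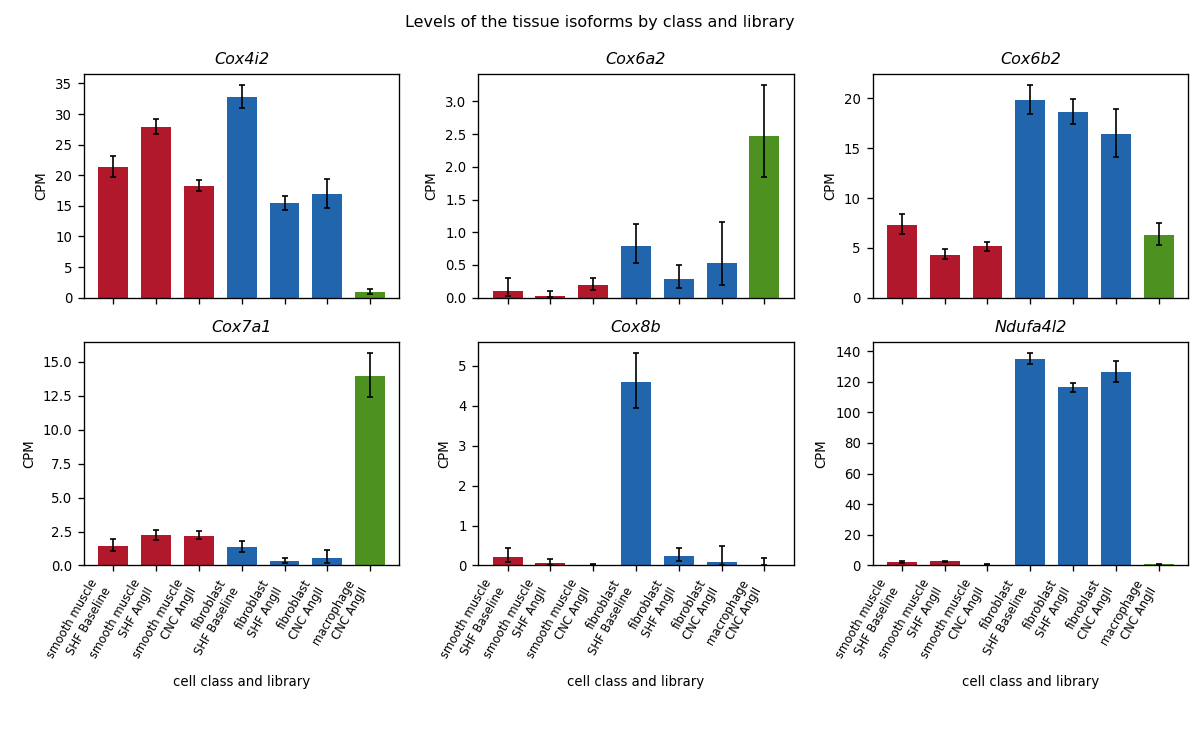
Bars give the CPM of 6 tissue isoforms of complex IV by class and library, with exact Poisson 95% intervals and a separate axis for each gene. Ndufa4l2 stands at 116 to 135 CPM in fibroblasts and at most 2.65 in smooth muscle and macrophages, and Cox7a1 is highest in macrophages.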

How the data were processed

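The deposited files hold raw UMI counts per gene and cell barcode, per the labels' protocols and the values themselves. The submitters' processing notes name fastp, STAR 2.5, HTSeq 0.6.1 and mm10, with no role, annotation or strand setting. The baseline file lists 18760 genes and the AngII files 32285. Filters kept cells of 500 or more genes and no more than 10% mt- UMIs, and doublets marked by Scrublet (scanpy 1.11.5, expected rate 8e-06 per cell, 207, 192 and 279 cells) were left out. That left 8374, 9299 and 10194 cells, of which 1, 2 and 8 met 2 gates and were left out, and 2169, 1999 and 1211 met none.

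CPM is the UMI sum of a gene over the cells of a gate and library, scaled to the UMI total of the same cells. Ratios used 1 CPM added. Intervals at 95% were exact Poisson for levels, conditional binomial for ratios and Clopper-Pearson for shares. Ratio and interval code was tested on simulated data. Cells of a library are not replicates, so no p-value is given. TMM factors came from edgeR 4.0.16, with no edgeR test. Gene positions came from GENCODE M21 (GRCm38), where all 78 members were found. Of these, 3 share exons with a same-strand gene and 26 with an opposite-strand one.

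Named genes were the 5 highest and 5 lowest members of each comparison, all isoform pairs, complex II, the mt- genes and genes of the other lists. Those outside this rule (the other members past 0.5, examples by complex) were chosen after their values were seen. The members and lists were chosen with earlier results of these data known. Values of 1 member are not reported singly here. Alternatives were other mt- limits, doublets kept, TMM, other totals, 10 CPM added, a depth window, per-cell means, stricter gates, subtraction of free RNA, and subsets of members.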

Additional observations from a re-analysis of the deposited data

Results flagged for a closer look

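Some members had ratios of opposite sign in the 2 classes, or in 2 libraries, with counting intervals that leave out 0 on both sides and the same signs under TMM scaling. The differences themselves were not tested, since each group is 1 library. For SHF AngII over baseline, Cox4i2 was at 0.37 in smooth muscle and -1.04 in fibroblasts, and Cox6c, a small complex IV subunit, at -0.19 and 0.14. TMM scaling adds 0.18 in smooth muscle, nearly the whole size of the Cox6c ratio there, so Cox6c was then barely below its baseline level. For smooth muscle over fibroblasts, Cox4i2 was at -0.60 at SHF baseline and at 0.82 in SHF AngII.

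For CNC over SHF with AngII, 3 members had small ratios of opposite sign. Cox6c was at -0.068 in smooth muscle and 0.059 in fibroblasts, Ndufa10, a complex I accessory subunit, at -0.052 and 0.12, and Ndufa4 at 0.026 and -0.066.

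The AngII files alone list 3 further genes that begin with the same letters, and 2 of them carried signal. Ndufb1-ps stood at 301 CPM in smooth muscle and 220.0 in fibroblasts of SHF AngII. In CNC AngII it stood at 358 and 261 CPM, and at 380 in macrophages. Ndufaf8, an assembly factor of complex I, stood at 64.3 and 62.7 CPM in SHF AngII, at 60.9 and 64.1 in CNC AngII and at 81.9 in macrophages. Cox8c had 0 UMIs. None of the 3 can be compared with baseline here.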

How the results depend on the processing

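Of 112 recomputed comparison medians, 97 stayed within a typical counting interval of 1 member, centred on the reported median, and 15 did not. That interval has the width found for a single member and is not an error of the median. With at most 5% mt- UMIs the median was 0.25 for AngII over baseline in smooth muscle, and 0.083 and 0.14 for smooth muscle over fibroblasts at SHF baseline and in SHF AngII. With TMM the AngII medians were 0.32 in smooth muscle and 0.44 in fibroblasts, the class medians 0.50, 0.40 and 0.38, and macrophages over smooth muscle -0.16. With cells of 5000 to 20000 UMIs the fibroblast AngII median was 0.23 and the macrophage median -0.017. Totals without mt- and ribosomal genes gave 0.22 for AngII in fibroblasts and 0.14 for the classes in SHF AngII. Per-cell means gave 0.13 for the classes at baseline and -0.044 for macrophages. The macrophage median, 0.06 as reported, was thus negative under 3 settings.

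Counts of members past 0.5 that moved by over 1.5 times, beside those under TMM, included 16 higher and 0 lower (14.995% and 30.2% of all genes) for AngII in smooth muscle with at most 5% mt- UMIs. For AngII in fibroblasts they were 10 and 1 (10.5% and 23.0%) with 10 CPM added and 8 and 2 (12.7% and 30.1%) with per-cell means. For smooth muscle over fibroblasts they were 9 and 6 at baseline (14.6% and 26.2%), 8 and 3 in SHF AngII (16.9% and 24.5%) and 3 and 3 in CNC AngII (16.8% and 23.9%) with at most 5% mt- UMIs. With the other totals they were 8 and 4 in SHF AngII (15.8% and 28.9%) and 3 and 3 in CNC AngII (16.1% and 28.5%). In CNC AngII they were also 11 and 3 with the depth window (18.3% and 25.5%) and 11 and 4 with stricter gates (18.8% and 27.6%), and 4 were higher with 10 CPM added (13.6%). Among named members 677 of 880 recomputed ratios stayed within their counting interval. Of 168 recomputed isoform shares, 135 stayed within theirs and 33 did not. Leaving out members with overlapping exons or a near copy, added after seeing the data, moved no median beyond the 1-member interval used above. Of members with no overlap on either strand and no copy, 3 of 43 were higher and 2 lower for AngII in smooth muscle, and 7 of 45 were higher and 3 lower in fibroblasts, beside the shares of all genes in the report. No replicate could be left out, and a member under about 10 CPM is limited by its count. No paired analysis was possible because each group has 1 library.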

Other observations

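Smooth muscle cells were also split by single genes. Cells with a UMI of Spp1, a gene of modulated smooth muscle, had a member sum of 17969 CPM in SHF AngII and 18034 in CNC AngII, and cells without one 19133 and 19219. Their median depths were 19749 and 18596.5 UMIs with Spp1, and 12700.5 and 12492 without. Splits by Igfbp2 gave 17176, 18938 and 18876 CPM with a UMI and 17327, 19048 and 18938 without, so that the sums in each library lay close together. For Tnnt2 they were 17348, 19041 and 18670 with and 17128, 18870 and 18951 without.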
